A study of Mus musculus with 24 samples.

Results

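The solute carrier family SLC25 comprises the proteins that exchange nucleotides, phosphate, organic acids, amino acids and cofactors across the inner mitochondrial membrane, with a few members in the outer membrane or in peroxisomes. The transcripts of this family were followed in mouse ventricle. Members were the genes whose symbol in the platform's probe annotation starts with Slc25a, each represented by the probe set with the highest mean signal over all arrays when it had several. There were 46 members with 51 probe sets, among 18819 genes with 21118 probe sets that name a single gene.

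Hearts were compared in 4 groups of 6, all labelled as the mouse strain C57/Bl6, which the methods give as C57BL/6J. Newborn wild type (WT) hearts and newborn knockout (KO) hearts were labelled day 1 to 2, and young WT and young KO hearts were labelled day 30. KO animals lacked caspase-7 in all tissues, and their floxed caspase-3 gene was deleted by Cre under regulatory sequences of Nkx2.5, a transcription factor gene of early heart muscle precursors. Cells outside that lineage, such as cardiac fibroblasts, therefore kept caspase-3 and lacked caspase-7. By Western blot the paper found some caspase-3 protein left in newborn KO hearts. Whether WT animals carried Cre or floxed alleles is not given in the sources used here. Caspase-3 and caspase-7 transcripts were not among the genes tested and are not analysed here, so the genotype labels were not checked on these signals.

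The heart meets most of its energy demand through mitochondrial ATP synthesis, and after birth it turns from glucose and lactate towards fatty acids as fuel. Fatty acids enter the matrix as acylcarnitines, cytosolic reducing equivalents enter through the malate-aspartate shuttle, and ADP and phosphate are taken in while ATP is released. Each of these steps has its own SLC25 carrier, and several carriers exist as paralogs that are used by different tissues or at different ages.

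All values are log2 signals from Affymetrix arrays that the authors had background corrected, quantile normalized and summarized by robust multi-array averaging (RMA). A difference of 1 on this scale is a doubling of signal, and signals of different probe sets cannot be ranked against each other. Array medians lay between 4.24 and 4.50, and 0 of 276 array pairs held identical values. Ventricular cardiomyocyte markers were high on every array, with means over 10 genes of 11.06 to 11.99. Xist was high and Y-linked signals were low on 1 WT and 2 KO arrays of newborn hearts and on 3 WT and 3 KO arrays of young hearts, whereas the methods name 3 males and 3 females per group. Sex is not given per sample. Young WT array 2 and young KO arrays 2 and 4 stood apart by their brown adipocyte markers, led by Ucp1 at 7.39 to 10.1 against 3.01 to 5.16 on the other 9 young arrays. The newborn WT and newborn KO arrays numbered 4 had stood apart in an earlier analysis of these data, so newborn comparisons are also given without them. The methods name 6 hearts per group, and the labels do not tie an array to an animal.

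The promoters of 6 members are shown. These are the ADP/ATP carrier pair described below and the largest rises and falls in WT hearts among members with a single window in the RefSeq promoter table. Slc25a35, which had the largest rise of all members, is absent from that table. The stretches shown are the 250 bases before the RefSeq start site in build GRCm38.p6, read 5′ to 3′ on the strand of the gene. Capitals mark GGGCGG (the core of the Sp1 box), CCAAT (the CCAAT box) and their reverse complements CCGCCC and ATTGG.
Slc25a4, chr8:46211063-46211312, minus strand: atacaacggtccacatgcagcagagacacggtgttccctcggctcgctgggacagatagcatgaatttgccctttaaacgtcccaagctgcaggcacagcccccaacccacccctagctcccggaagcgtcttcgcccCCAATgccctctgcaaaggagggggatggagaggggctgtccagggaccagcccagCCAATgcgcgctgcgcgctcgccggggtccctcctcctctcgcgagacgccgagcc
Slc25a5, chrX:36795347-36795596, plus strand: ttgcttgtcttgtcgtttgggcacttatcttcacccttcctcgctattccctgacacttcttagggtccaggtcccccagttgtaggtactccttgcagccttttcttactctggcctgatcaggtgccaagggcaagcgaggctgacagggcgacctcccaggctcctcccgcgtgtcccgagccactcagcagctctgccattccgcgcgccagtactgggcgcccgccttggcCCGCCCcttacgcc
Slc25a34, chr4:141623835-141624084, minus strand: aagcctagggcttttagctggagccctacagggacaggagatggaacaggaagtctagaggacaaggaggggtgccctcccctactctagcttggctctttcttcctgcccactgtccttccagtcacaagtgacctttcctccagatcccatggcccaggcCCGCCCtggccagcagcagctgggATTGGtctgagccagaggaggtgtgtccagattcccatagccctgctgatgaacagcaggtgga
Slc25a29, chr12:108835877-108836126, minus strand: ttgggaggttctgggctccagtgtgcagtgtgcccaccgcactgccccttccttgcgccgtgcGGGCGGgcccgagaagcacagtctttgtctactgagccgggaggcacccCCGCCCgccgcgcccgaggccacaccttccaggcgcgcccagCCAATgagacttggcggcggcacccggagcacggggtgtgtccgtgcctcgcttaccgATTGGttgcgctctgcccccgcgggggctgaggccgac
Slc25a24, chr3:109122899-109123148, plus strand: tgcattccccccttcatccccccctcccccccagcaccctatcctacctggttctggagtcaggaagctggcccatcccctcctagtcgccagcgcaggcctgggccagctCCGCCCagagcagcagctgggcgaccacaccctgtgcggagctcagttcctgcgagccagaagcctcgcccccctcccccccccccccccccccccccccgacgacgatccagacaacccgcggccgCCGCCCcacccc
Slc25a30, chr14:75787038-75787287, minus strand: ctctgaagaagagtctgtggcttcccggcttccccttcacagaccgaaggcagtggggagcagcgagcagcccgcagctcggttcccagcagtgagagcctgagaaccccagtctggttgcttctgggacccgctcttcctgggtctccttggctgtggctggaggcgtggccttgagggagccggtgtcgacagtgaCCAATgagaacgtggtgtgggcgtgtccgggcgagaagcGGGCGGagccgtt

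The RefSeq promoter table held 36 of the 46 members. Motifs were searched on both strands, with overlapping matches allowed, in windows of 300 bases that also hold the 50 bases after the start. A gene with several start sites was counted when any of its windows held the motif. GGGCGG was found for 30 of 36 members and for 38.2% of all 27025 genes. In Slc25a4 it lies in the 50 bases after the start, outside the stretch printed above. CCAAT was found for 19 of 36 members and 41.1% of all genes. TATAAA, the core of the TATA box, was found for 2 of 36, Slc25a18 and Slc25a21, and for 15.7% of all genes. TCAAGGTCA, an element of the estrogen-related receptors, and GCGCATGCG, an element of nuclear respiratory factor 1, were found for 0 of 36 members, against 0.466% and 1.95% of all genes. GGGCGG was found for 12 of 14 members in the table that rose with age in WT hearts, 9 of 9 that fell and 9 of 13 that did neither. These letter matches are a description and do not show that a factor binds there.

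The first question was how the carrier transcripts changed between birth and 1 month in WT hearts. Of the 46 members, 19 rose, 10 fell and 17 did not pass the test (limma with Benjamini-Hochberg adjustment over all 18819 genes, adjusted p under 0.05). That is 63.0% of members, and of all genes tested 47.0% were called, 19.2% higher and 27.9% lower. The members' median change was 0.06 on the log2 scale, from -1.64 to 1.99, against a median of 0.0024 over all genes. The 6 young arrays lay wholly above the 6 newborn arrays for 15 members and wholly below for 7. Over all genes 29.7% had separate ages, 11.5% higher and 18.2% lower. In the 80 genes of the respiratory chain and ATP synthase, which are read here by their symbol prefixes, 69 rose and 3 fell, with a median of 0.45.

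**Figure D1:**
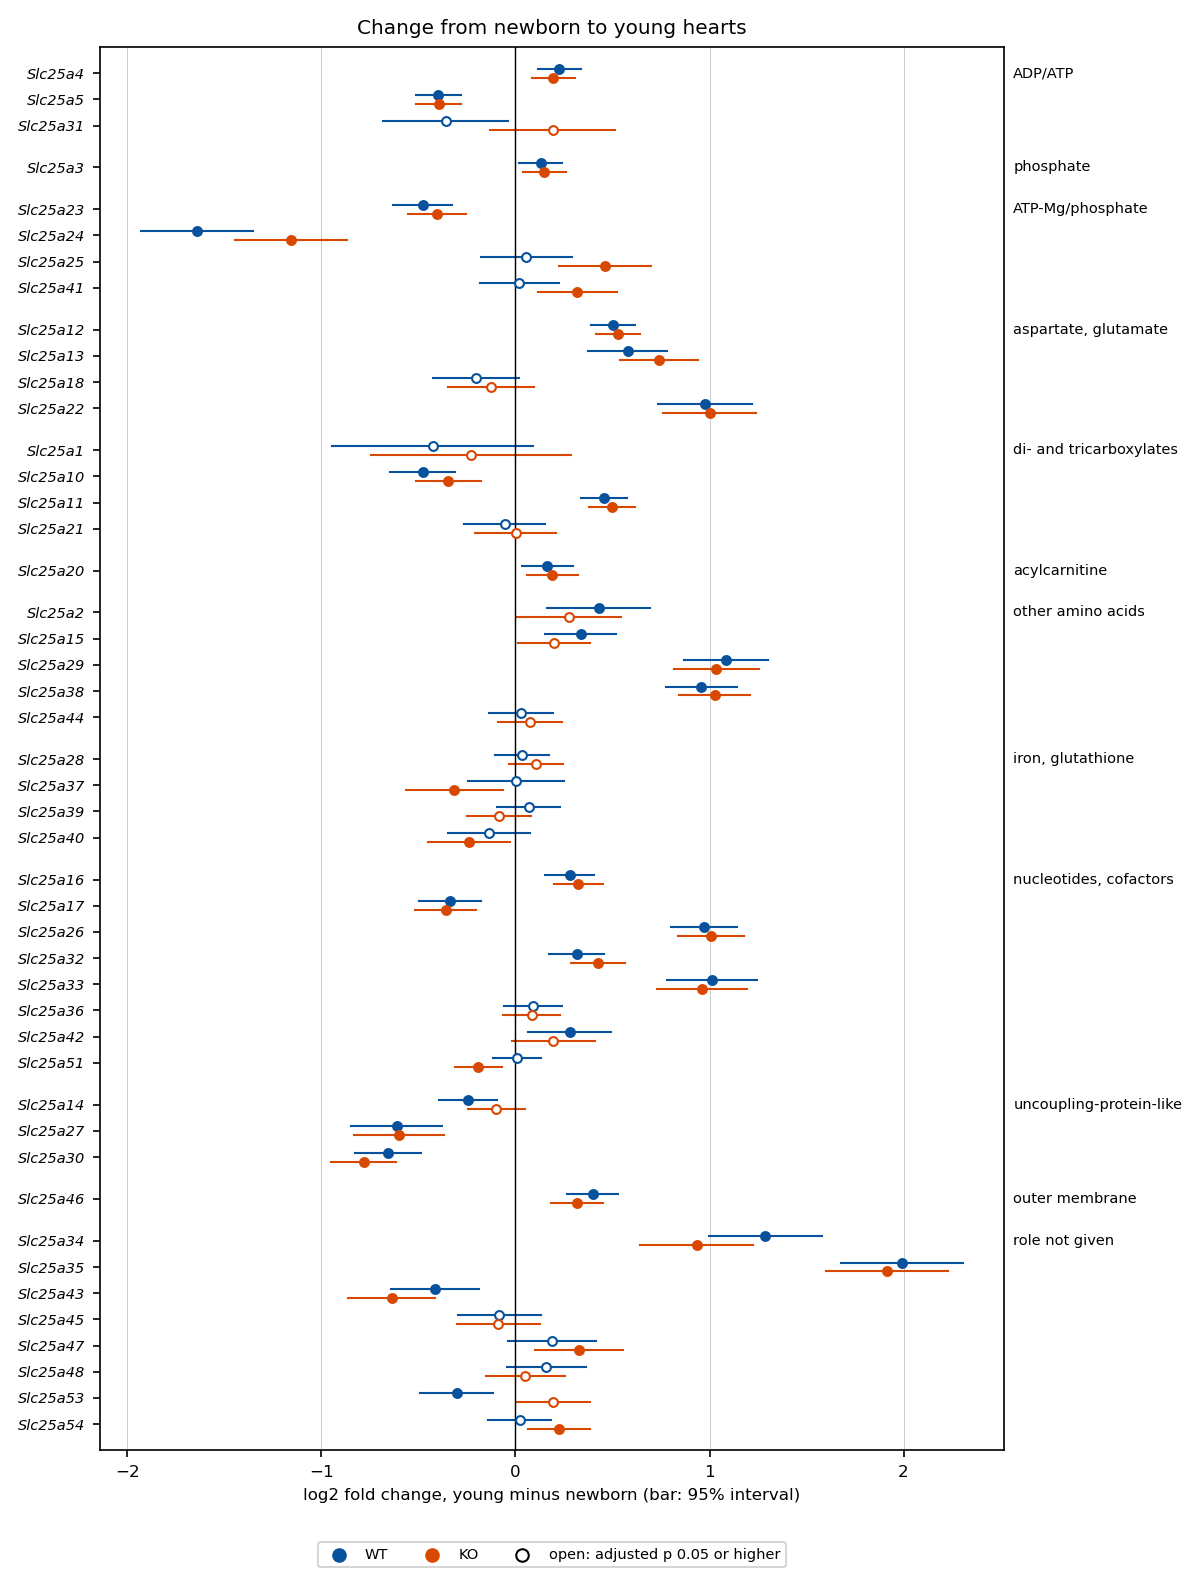
Change from newborn to young hearts as log2 fold change on the x axis for the 46 carrier genes, grouped by what they transport, in WT (blue) and KO (orange) hearts. Points are limma estimates from 6 arrays per group, bars are 95% intervals and filled points have an adjusted p under 0.05. Slc25a35 at 1.99 and Slc25a24 at -1.64 mark the ends of the WT range.

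Slc25a35 and Slc25a34, paralogs whose substrates are not given here, showed the 2 largest rises of the 46 members in WT hearts. Slc25a35 measured 4.97, 5.32 and 5.61 (lowest, median and highest array) in newborn WT hearts and 6.79, 7.25 and 7.94 in young WT hearts. All young arrays lay above all newborn arrays, a change of 1.99 (SE 0.15, 3.98-fold, n = 6 per group, limma adjusted p = 8.23e-11). In KO hearts it went from 4.66, 5.13 and 5.43 to 6.73, 6.99 and 7.38, a change of 1.92 (SE 0.15). Slc25a34 measured 7.39, 7.74 and 8.35 in newborn WT and 8.72, 9.08 and 9.16 in young WT hearts. Its change was 1.29 (SE 0.14, limma adjusted p = 3.50e-08) in WT and 0.93 (SE 0.14, limma adjusted p = 5.18e-06) in KO hearts, again without overlap between the ages. Of the other 6 members whose role is not given here, Slc25a43 fell by 0.41 in WT and by 0.64 in KO hearts. Slc25a43 lost its WT call when the values were quantile normalized anew, with a limma adjusted p of 0.0588. Slc25a53 fell by 0.30 in WT hearts and stood at 0.20 in KO hearts (adjusted p = 0.0673). Slc25a45, Slc25a47, Slc25a48 and Slc25a54 did not pass in WT hearts, at -0.08, 0.19, 0.16 and 0.02, and Slc25a47 and Slc25a54 rose in KO hearts by 0.33 and 0.22. Slc25a54 lost that call without young KO array 6 (0.17, adjusted p = 0.0560) and after a new quantile normalization. The signals of Slc25a48, Slc25a53 and Slc25a54 were below the median of all deposited values on every array.

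**Figure D2:**
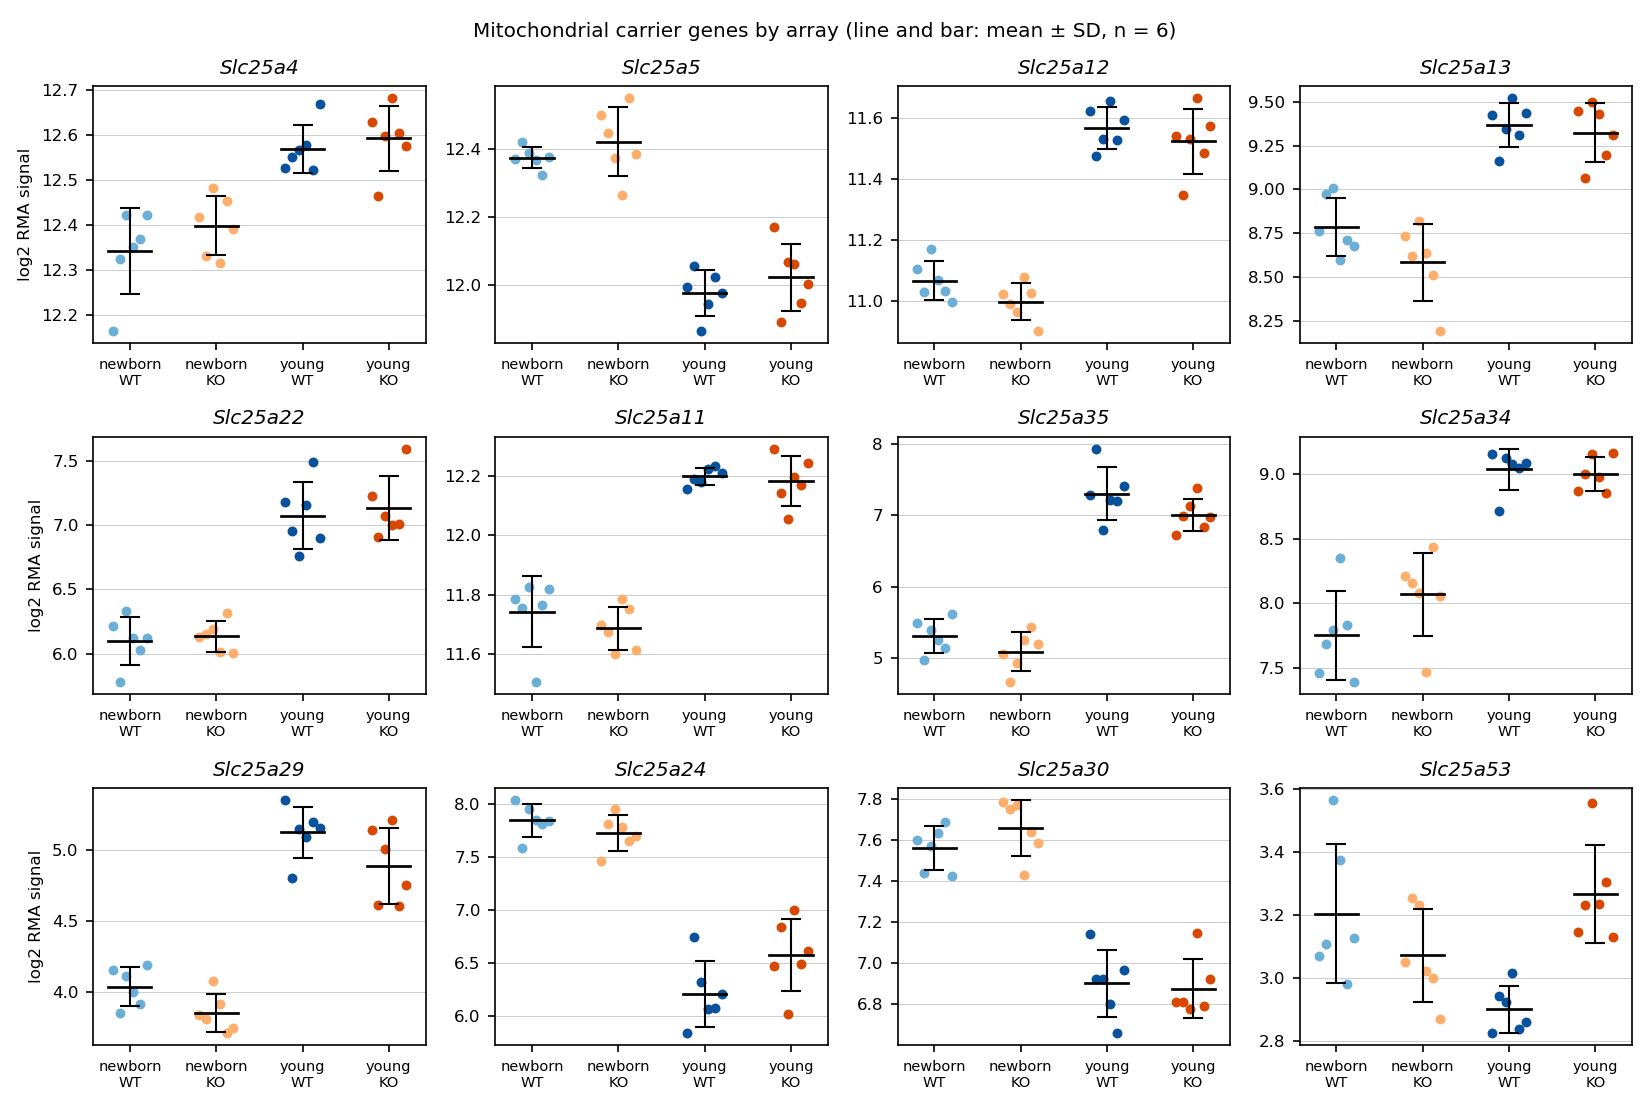
Log2 RMA signal on the y axis for 12 carrier genes on each of the 24 arrays, by group on the x axis, with the mean and SD of 6 arrays. In Slc25a35 the newborn WT arrays reach 5.61 and the young WT arrays start at 6.79, while in Slc25a24 the newborn WT arrays start at 7.58 and the young WT arrays end at 6.74.

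The ADP/ATP carriers moved apart. Slc25a4 (ANT1) is the isoform of adult heart and skeletal muscle, Slc25a5 (ANT2) that of dividing and many other cells, and Slc25a31 (ANT4) that of the testis. Slc25a4 measured 12.16, 12.36 and 12.42 in newborn WT and 12.52, 12.56 and 12.67 in young WT hearts, a rise of 0.23 (SE 0.05, limma adjusted p = 0.000986). Slc25a5 measured 12.32, 12.37 and 12.42 in newborn WT and 11.86, 11.99 and 12.06 in young WT hearts, a fall of 1.32-fold (log2 change -0.40, SE 0.06, limma adjusted p = 1.69e-06). The arrays of the ages did not overlap for either gene in WT hearts. KO hearts gave 0.19 for Slc25a4 and -0.40 for Slc25a5. All 3 probe sets that name Slc25a5 fell, by 0.39 to 0.42 in WT hearts, although Slc25a5 has processed copies in the genome that such probes may also read. The rise of Slc25a4 depended on the scaling, because a new quantile normalization left it without a call in WT hearts and at -0.00074 in KO hearts.

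After that normalization Slc25a4 and Slc25a5 stood at 0.07 and -0.48 in WT hearts. The difference between them within an array has no meaning in its size, since it compares 2 probe sets, so only its shift is read. It lay between -0.21 and 0.05 on newborn WT and between 0.49 and 0.70 on young WT arrays, a shift of 0.62 (two-sided exact permutation test, p = 0.00216, adjusted p = 0.00577 over 24 such comparisons, n = 6 per group). In KO hearts the shift was 0.59, with the same p, which is the smallest that 6 against 6 arrays can give. Slc25a31 measured 2.99 to 4.32 in newborn WT and 2.97 to 3.28 in young WT hearts. Its changes of -0.36 in WT and 0.19 in KO hearts did not pass (limma adjusted p = 0.0631 and 0.294), and the first passed in 4 of 34 alternative settings, among them without newborn WT array 1 (-0.46) or 5 (-0.45). It is 1 of 9 members whose signal stayed below the median of all deposited values on every array. The others were Slc25a2, Slc25a14, Slc25a18, Slc25a21, Slc25a41, Slc25a48, Slc25a53 and Slc25a54. The deposited values hold no detection call, so calls of these 9 members rest on dim signals.

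Slc25a3, the phosphate carrier that supplies ATP synthase, rose slightly. It measured 11.68, 11.86 and 11.96 in newborn WT and 11.90, 11.95 and 12.001 in young WT hearts, with overlap between the ages. The change was 0.13 (SE 0.05, limma adjusted p = 0.0480) in WT and 0.15 (adjusted p = 0.0190) in KO hearts. In WT hearts the call was lost in 24 of 35 alternative settings, and over all 35 the adjusted p ran from 0.0112 to 0.136. Among 9 measured partners of adenine nucleotide exchange, 6 rose and 1 fell in WT hearts. Ckmt2, the muscle creatine kinase of mitochondria, rose by 2.66, the adenylate kinase Ak4 by 1.37 and cyclophilin D (Ppif) by 0.49, and Atpif1, the inhibitor of ATP synthase, changed by -0.43.

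**Figure D3:**
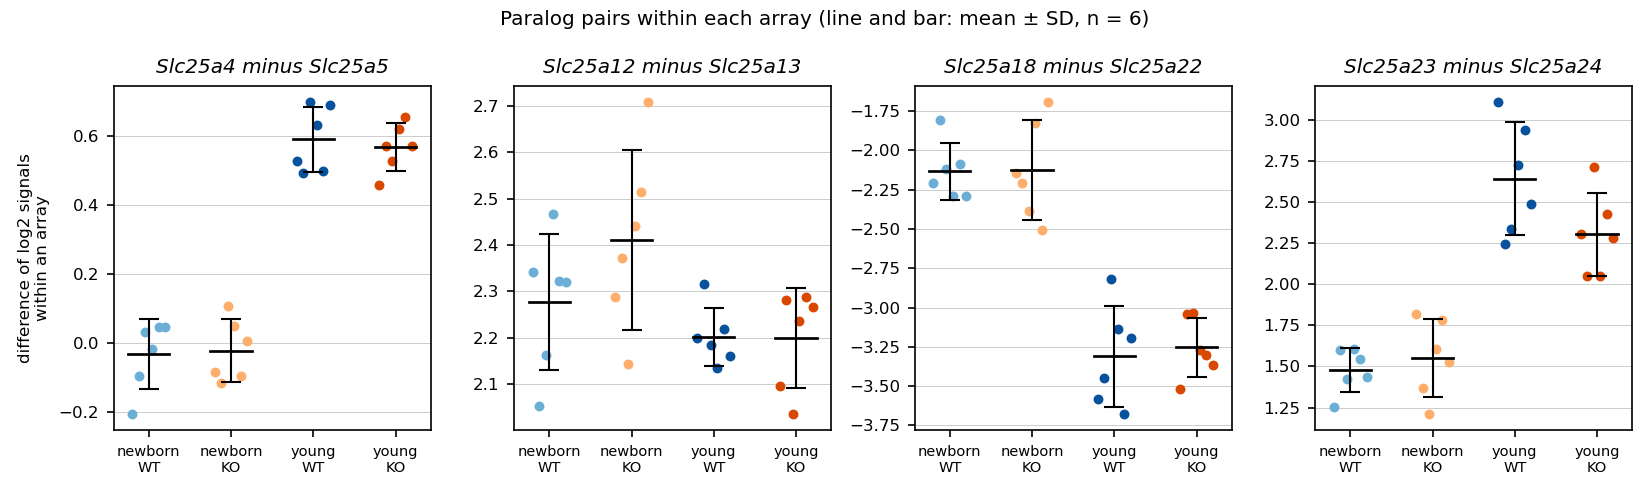
Difference between the log2 signals of 2 paralogs within an array on the y axis, by group on the x axis, for 4 pairs, with the mean and SD of 6 arrays. The shift with age is 0.62 for Slc25a4 minus Slc25a5 and -0.08 for Slc25a12 minus Slc25a13 in WT hearts.

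The ATP-Mg/phosphate carriers, which adjust the adenine nucleotide content of the matrix and are mostly gated by calcium, held the largest fall. Slc25a24 measured 7.58, 7.85 and 8.05 in newborn WT and 5.84, 6.14 and 6.74 in young WT hearts. No array of one age reached the other, and the change was -1.64 (SE 0.14, 3.12-fold, limma adjusted p = 5.18e-10). In KO hearts Slc25a24 went from 7.46, 7.75 and 7.96 to 6.02, 6.55 and 6.998, a change of -1.16 (SE 0.14, limma adjusted p = 2.04e-07). Slc25a23 fell by 0.48 in WT and 0.41 in KO hearts. Slc25a25 measured 4.82 to 5.25 in newborn WT and 4.77 to 5.42 in young WT hearts, a change of 0.06 (adjusted p = 0.727), and it rose by 0.46 in KO hearts (adjusted p = 0.00148). Slc25a41, with signals below the median of all deposited values on every array, had 0.02 in WT and rose by 0.32 in KO hearts. Within an array, Slc25a23 minus Slc25a24 shifted by 1.16 in WT and 0.75 in KO hearts, and Slc25a25 minus Slc25a24 by 1.70 and 1.62 (each exact permutation p = 0.00216, adjusted p = 0.00577).

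In bulk tissue, fewer cells of a type and less RNA per cell cannot be told apart. Lists of other cell types and states moved with age in WT hearts as well. Of 9 cell division genes 9 fell, with a mean over the list of 7.36 to 8.53 on newborn WT and 5.14 to 6.18 on young WT arrays. Fibroblast genes fell in 6 of 9, with list means of 9.41 to 9.58 and 7.85 to 9.33, and atrial genes in 9 of 13, with 7.35 to 8.68 and 5.80 to 8.41. In each of these 2 lists 1 gene rose. Of 9 leukocyte genes 7 rose and 2 fell, and of 8 endothelial genes 3 rose and 5 fell. Of 10 ventricular cardiomyocyte genes 4 rose and 3 fell, with changes of -4.34 to 0.29. The means of that list were 11.78 to 11.985 on newborn WT and 11.11 to 11.30 on young WT arrays. Their part in the carriers' changes was not tested.

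Carriers of aspartate and glutamate rose in 3 of 4 members in both genotypes. Slc25a12 (aralar) and Slc25a13 (citrin) exchange matrix aspartate for cytosolic glutamate in the malate-aspartate shuttle. Slc25a12 measured 10.996, 11.05 and 11.17 in newborn WT and 11.47, 11.56 and 11.66 in young WT hearts, a rise of 0.50 (SE 0.06, limma adjusted p = 3.54e-08). Slc25a13 measured 8.60, 8.73 and 9.01 in newborn WT and 9.16, 9.39 and 9.52 in young WT hearts, a rise of 0.58 (SE 0.10, limma adjusted p = 2.24e-05). Both were free of overlap between the ages, and in KO hearts they rose by 0.53 and 0.74. The difference between them within an array shifted by -0.08 in WT (exact permutation adjusted p = 0.464) and -0.21 in KO hearts (adjusted p = 0.0756), so no unequal change of this pair was established.

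Of the glutamate carriers Slc25a22 and Slc25a18, the first rose. Slc25a22 measured 5.78, 6.12 and 6.33 in newborn WT and 6.76, 7.06 and 7.49 in young WT hearts, a rise of 0.98 (SE 0.12, 1.97-fold, limma adjusted p = 1.44e-07), and it rose by 1.00 in KO hearts. Slc25a18, with signals of 3.51 to 4.21 in WT hearts, stood at -0.20 (adjusted p = 0.129) and is another of the 9 members below the median of all values on every array. The within-array difference Slc25a18 minus Slc25a22 shifted by -1.18 in WT and -1.13 in KO hearts (each exact permutation p = 0.00216, adjusted p = 0.00577). With Slc25a18 that dim, the shift follows the rise of Slc25a22 and does not show how Slc25a18 changed. Of 8 other genes listed with the malate-aspartate shuttle, 6 rose and 0 fell in WT hearts, though not all of them are parts of it. Gpd1, a cytosolic glycerol phosphate dehydrogenase outside the shuttle, rose by 2.04, and the lactate dehydrogenase gene Ldhb, also outside it, by 0.37. The cytosolic transaminase Got1 rose by 0.72 and Mdh1 by 0.37.

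Di- and tricarboxylate carriers moved in both directions. Slc25a11, the oxoglutarate/malate carrier that completes the malate-aspartate shuttle, measured 11.50, 11.77 and 11.83 in newborn WT and 12.15, 12.20 and 12.23 in young WT hearts. It rose by 0.46 (SE 0.06, limma adjusted p = 3.11e-07) in WT and 0.50 in KO hearts, with separate arrays at the 2 ages. Slc25a10, the dicarboxylate carrier, measured 7.99, 8.27 and 8.39 in newborn WT and 7.61, 7.75 and 7.92 in young WT hearts, a change of -0.48 (SE 0.08, limma adjusted p = 2.39e-05), and it fell by 0.35 in KO hearts. Slc25a21, the oxodicarboxylate carrier, stood at -0.06 in WT and 0.0013 in KO hearts (adjusted p = 0.686 and 0.991).

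Slc25a1, the citrate carrier that exports citrate for lipid synthesis, measured 7.65, 7.79 and 7.91 in newborn WT and 6.86, 7.06 and 9.09 in young WT hearts. The value 9.09 was that of young WT array 2, and the other 5 young WT arrays ended at 7.15. The change was -0.43 (SE 0.25, limma adjusted p = 0.174) over all arrays, -0.77 (adjusted p = 1.24e-05) without young WT array 2, and -0.77 (adjusted p = 5.86e-09) without the 3 young arrays with high brown adipocyte markers. In KO hearts it was -0.23 (adjusted p = 0.432) and, without those arrays, -0.47 (adjusted p = 1.96e-05). The exclusion of the 3 arrays was chosen after the data were seen, and they held the highest Slc25a1 values of the young hearts. Leaving them out, or young WT array 2 alone, lowers the young mean and its spread by construction. The p-values of those fits are therefore no support for a fall. On the 3 arrays Slc25a1 measured 8.005 to 9.09, against 6.86 to 7.44 on the other 9 young arrays, and Slc25a24 measured 6.74 to 6.998 against 5.84 to 6.62. Of the 46 members, these 2 lay wholly above the other young arrays on the 3, 0 lay wholly below and 44 overlapped. Over all genes 4.25% were separate, 4.06% above and 0.186% below, so the members were near the background share. The mean of 8 brown adipocyte markers was 8.23 to 8.82 on the 3 arrays and 7.42 to 7.78 on the other 9, and that of 7 general adipocyte markers was 6.47 to 7.71 and 5.15 to 6.02. The ATP citrate lyase gene Acly, whose product uses the exported citrate, measured 7.90 to 9.32 and 7.12 to 7.70 on the same arrays.

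**Figure D4:**
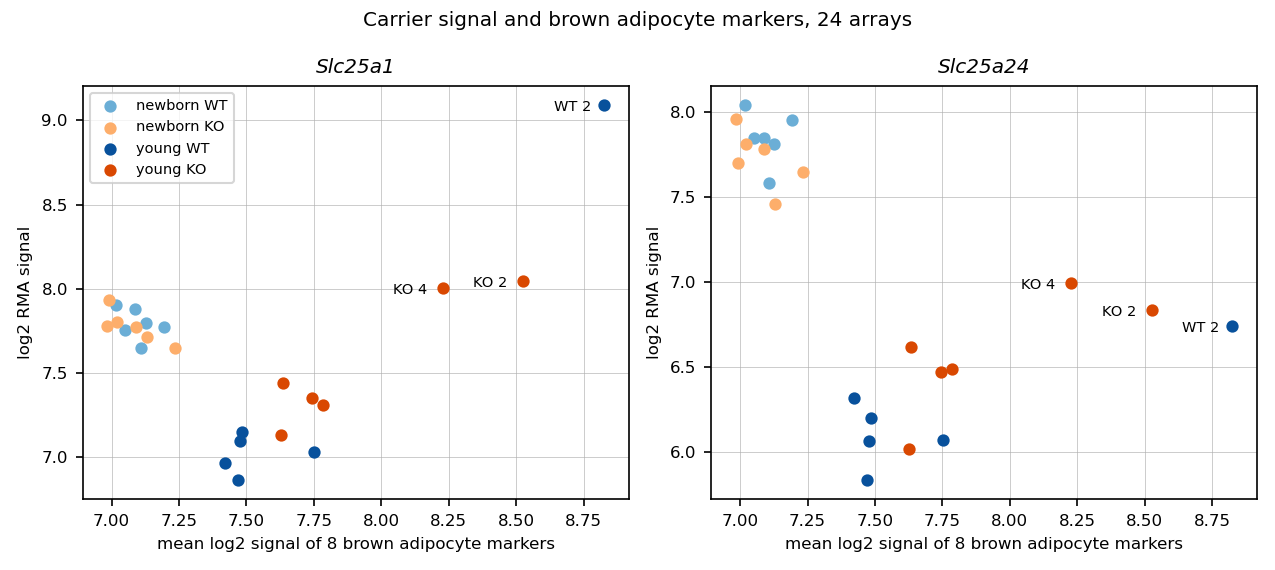
Log2 RMA signal of Slc25a1 and Slc25a24 on the y axes against the mean log2 signal of 8 brown adipocyte markers on the x axes, with 1 point per array coloured by group. Young WT array 2 and young KO arrays 2 and 4 lie at marker means of 8.23 to 8.82, with Slc25a1 at 8.005 to 9.09.

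Slc25a20, the carnitine/acylcarnitine carrier, rose by 0.16 (SE 0.06, limma adjusted p = 0.0352) in WT and 0.19 in KO hearts. Its signals were 9.99, 10.07 and 10.17 in newborn WT and 10.12, 10.25 and 10.30 in young WT hearts, with overlap, and the WT call was lost in 8 of 35 alternative settings, each without newborn WT array 4, 5 or 6 or young WT array 3, 4, 5 or 6. Of 8 measured genes of carnitine-dependent fatty acid entry, 3 rose and 2 fell. Cpt1a, the acyltransferase isoform of liver and fetal heart, fell by 1.49 and Cpt1c changed by -0.77. Cpt1b, the remaining isoform of this acyltransferase, was listed but not measured, so the change of this step as a whole is not known. Cpt2, the inner membrane acyltransferase, rose by 0.56, and Acacb, which makes the malonyl-CoA that inhibits acylcarnitine formation, by 0.87.

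Amino acid carriers rose in 4 of 5 members in WT hearts and in 2 of 5 in KO hearts, where 19.2% and 34.0% of all genes were called higher. Slc25a29, a carrier of basic amino acids, measured 3.85, 4.05 and 4.19 in newborn WT and 4.80, 5.15 and 5.35 in young WT hearts. The change was 1.09 (SE 0.10, 2.12-fold, limma adjusted p = 4.50e-09) in WT and 1.04 in KO hearts. Slc25a38, the glycine carrier that feeds heme synthesis, measured 7.498, 7.74 and 7.996 in newborn WT and 8.54, 8.69 and 8.99 in young WT hearts, a rise of 0.96 (SE 0.09, limma adjusted p = 2.23e-09), with 1.03 in KO hearts. Neither gene had overlapping arrays between the ages in either genotype. The ornithine carriers Slc25a15 and Slc25a2 rose in WT hearts by 0.34 and 0.43, and had 0.20 and 0.28 in KO hearts (adjusted p = 0.0576 and 0.0678). Slc25a2 signals were below the median of all deposited values on every array. Slc25a44, a carrier of branched-chain amino acids, stood at 0.03 and 0.07.

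Of the 4 iron and glutathione carriers, 0 passed the test in WT hearts and 2 fell in KO hearts. Slc25a37 (mitoferrin 1) brings iron to heme synthesis in erythroid cells and Slc25a28 (mitoferrin 2) in other cells. Slc25a28 measured 7.05 to 7.32 in newborn WT and 7.03 to 7.38 in young WT hearts. Slc25a37 measured 7.19 to 7.57 and 7.14 to 7.72. Their changes were 0.03 (95% interval -0.11 to 0.17) and 0.0011 (95% interval -0.25 to 0.25). In KO hearts Slc25a37 fell by 0.32 (limma adjusted p = 0.0282), with 6.65 to 7.35 on young KO against 7.24 to 7.69 on newborn KO arrays, and Slc25a28 stood at 0.11 (adjusted p = 0.181). The call of Slc25a37 was lost after a new quantile normalization and without newborn KO arrays 3 or 5 or young KO arrays 2 or 3, with adjusted p-values of 0.0516 to 0.108. Within an array, Slc25a28 minus Slc25a37 shifted by 0.42 in KO hearts (exact permutation p = 0.00216, adjusted p = 0.00577) and by 0.03 in WT hearts (adjusted p = 0.913). The glutathione carriers Slc25a39 and Slc25a40 had 0.07 and -0.13 in WT hearts, and Slc25a40 fell by 0.24 in KO hearts (adjusted p = 0.0492). The second probe set of Slc25a40 had -0.06 there and did not pass, and the call of the first was lost in 21 of 35 alternative settings. Of 11 measured genes of heme and iron-sulfur synthesis 6 rose and 3 fell in WT hearts, among them Alas1, the first enzyme of heme synthesis, by 0.67, Cpox by 0.80 and Nfs1 by 0.60, with Hmox1, which degrades heme, at -0.95.

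Nucleotide and cofactor carriers rose in 5 of 8 members and fell in 1 in WT hearts. Slc25a33, a pyrimidine nucleotide carrier, measured 4.91, 5.21 and 5.46 in newborn WT and 5.88, 6.20 and 6.44 in young WT hearts, a rise of 1.01 (SE 0.11, 2.02-fold, limma adjusted p = 4.20e-08). Its paralog Slc25a36 stood at 0.09 (adjusted p = 0.322), although a dimmer probe set of Slc25a36 rose by 0.23. Slc25a26, the carrier of S-adenosylmethionine, the methyl donor, measured 6.97, 7.14 and 7.28 in newborn WT and 7.91, 8.14 and 8.21 in young WT hearts, a rise of 0.97 (SE 0.08, limma adjusted p = 5.15e-10). KO hearts gave 0.96 for Slc25a33 and 1.01 for Slc25a26, and both genes had separate arrays at the 2 ages in both genotypes.

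Smaller rises in WT hearts were those of the folate carrier Slc25a32 (0.32), of Slc25a16 (0.28) and of the coenzyme A carrier Slc25a42 (0.28), which lost its call without newborn WT array 1, 2 or 6 or young WT array 1, 4 or 5. A probe set shared by Slc25a32 and Dcaf13, which was not used, moved the other way at -0.25. Slc25a17, which transports cofactors in the peroxisomal membrane, measured 8.35, 8.49 and 8.67 in newborn WT and 7.97, 8.17 and 8.30 in young WT hearts, a fall of 0.34 (SE 0.08) in WT and 0.36 in KO hearts. Slc25a51, the NAD carrier, stood at 0.0068 in WT hearts and fell by 0.19 in KO hearts (limma adjusted p = 0.00846). In one-carbon metabolism and citrate use, 6 of 11 genes fell and 3 rose in WT hearts, with Mthfd1l at -1.39, Shmt1 at -1.02, Aldh1l2 at -0.63 and Ogdh, a subunit of the oxoglutarate dehydrogenase, at 0.74.

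All 3 uncoupling-protein-like carriers fell in WT hearts, and 2 of them in KO hearts. Slc25a30 measured 7.42, 7.58 and 7.69 in newborn WT and 6.66, 6.92 and 7.14 in young WT hearts, a change of -0.66 (SE 0.08, 1.58-fold, limma adjusted p = 2.61e-07). Slc25a27 (UCP4) measured 5.58, 5.92 and 6.05 in newborn WT and 4.89, 5.31 and 5.55 in young WT hearts, a change of -0.61 (SE 0.11, limma adjusted p = 6.47e-05). In KO hearts they changed by -0.78 and -0.60, and in neither genotype did the ages overlap. Slc25a14 (UCP5) fell by 0.24 in WT hearts and stood at -0.10 in KO hearts (adjusted p = 0.233). Median centring of the arrays took away its WT call, with an adjusted p of 0.059. Slc25a14 signals were below the median of all deposited values on every array.

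Relatives that carry other names, 4 in number, were measured beside the members. Ucp3, the uncoupling protein of muscle, fell by 1.17 and Mtch1, of the outer membrane, by 0.40 in WT hearts, and Ucp3 stood at -0.23 in KO hearts (adjusted p = 0.408). Ucp1, the uncoupling protein of brown fat, stood at 1.46 in WT hearts (adjusted p = 0.243) and rose by 2.30 in KO hearts (adjusted p = 0.0494), with its highest values on the 3 arrays named above. Mtch2 stood at 0.05 in WT hearts. Slc25a46, a member of the outer membrane that takes part in mitochondrial fission and fusion, rose by 0.40 (SE 0.06, limma adjusted p = 1.12e-05) in WT and 0.32 in KO hearts. Its second probe set had 0.05 in WT hearts and did not pass, and rose by 0.39 in KO hearts (adjusted p = 0.00251).

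Carrier precursors are brought to the inner membrane by a dedicated import route. Of 13 genes of that route 5 rose and 1 fell in WT hearts, with Tomm5 at 1.11, Timm10 at 0.61, Timm22 at 0.43 and Timm29 at 0.41. Among 14 measured transporters of the inner membrane outside the family, 6 rose and 3 fell. Mpc1, a subunit of the pyruvate carrier, rose by 1.09 and the cation exchanger gene Letm1 by 0.74, while the sideroflexins Sfxn3 and Sfxn1 had -0.81 and -0.77.

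Next, the same change was followed in KO hearts. There 20 members rose, 11 fell and 15 did not pass, which is 67.4% of members against 59.0% of all genes tested, 34.0% higher and 25.0% lower. The background share was sensitive to scaling, with 47.2% of all genes called after a new quantile normalization. The members' median was 0.19 against 0.10 over all genes. The young KO arrays lay wholly above the newborn KO arrays for 12 members and wholly below for 6. Over all genes 31.0% had separate ages, 15.9% higher and 15.1% lower. Set beside each other, 24 members were called in the same direction in both genotypes (16 higher and 8 lower), 0 in opposite directions, 5 in WT hearts alone, 7 in KO hearts alone and 10 in neither. The 5 were Slc25a2, Slc25a14, Slc25a15, Slc25a42 and Slc25a53, and the 7 were Slc25a25, Slc25a37, Slc25a40, Slc25a41, Slc25a47, Slc25a51 and Slc25a54. Matching counts over all genes were not made, so the side-by-side counts are not read as particular to the carriers. The difference between the 2 age changes was tested for each member and passed for 0 of 46 (0.0106% of all genes, limma), so none of these genes was shown to change differently. Without adjustment, 6 members had p under 0.05 for that difference, and 12.9% of all genes did.

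The genotypes were compared at each age. In newborn hearts 0 of 46 members passed the test for KO against WT, and 0.0% of all genes did, by limma at an adjusted p under 0.05. That is no evidence that the genotypes were alike. The paper reports lower transcripts of DNA replication and cell cycle genes in newborn knockout hearts, with qPCR for a set of genes. Here 9 measured cell division genes stood at -0.87 to -0.49 in newborn hearts, with 0 called. Without adjustment 4 members had p under 0.05, 1 higher and 3 lower in KO hearts, and 9.07% of all genes did. The KO and WT arrays overlapped for all 46 members, and 0.489% of all genes had groups that did not overlap, 0.0531% higher and 0.436% lower. The median member difference was -0.02, against -0.05 over all genes. The 95% intervals reached a median of 0.19 to either side of the estimate and lay inside -0.5 to 0.5 for 42 of 46 members, and smaller differences could not be resolved with these arrays.

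Slc25a31, Slc25a34, Slc25a14 and Slc25a13 had the smallest unadjusted p in newborn hearts. Slc25a34 was 7.39, 7.74 and 8.35 in newborn WT and 7.47, 8.12 and 8.44 in newborn KO hearts, overlapping widely, a difference of 0.32 (SE 0.14, limma adjusted p = 0.507). Without both newborn arrays numbered 4 it was 0.56 (adjusted p = 0.00381) and Slc25a34 was then the only member called, when 2.56% of all genes were. Those arrays held the highest WT value (8.35) and the lowest KO value (7.47) of Slc25a34. Leaving them out widens the difference by construction, so that p-value is no support for a genotype effect. The difference was -0.37 for Slc25a31, whose newborn WT arrays spread from 2.99 to 4.32, -0.16 for Slc25a14 and -0.20 for Slc25a13 (adjusted p = 0.489, 0.517 and 0.548). For Slc25a4 and Slc25a5 the 95% intervals of KO minus WT were -0.05 to 0.17 and -0.07 to 0.16.

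**Figure D5:**
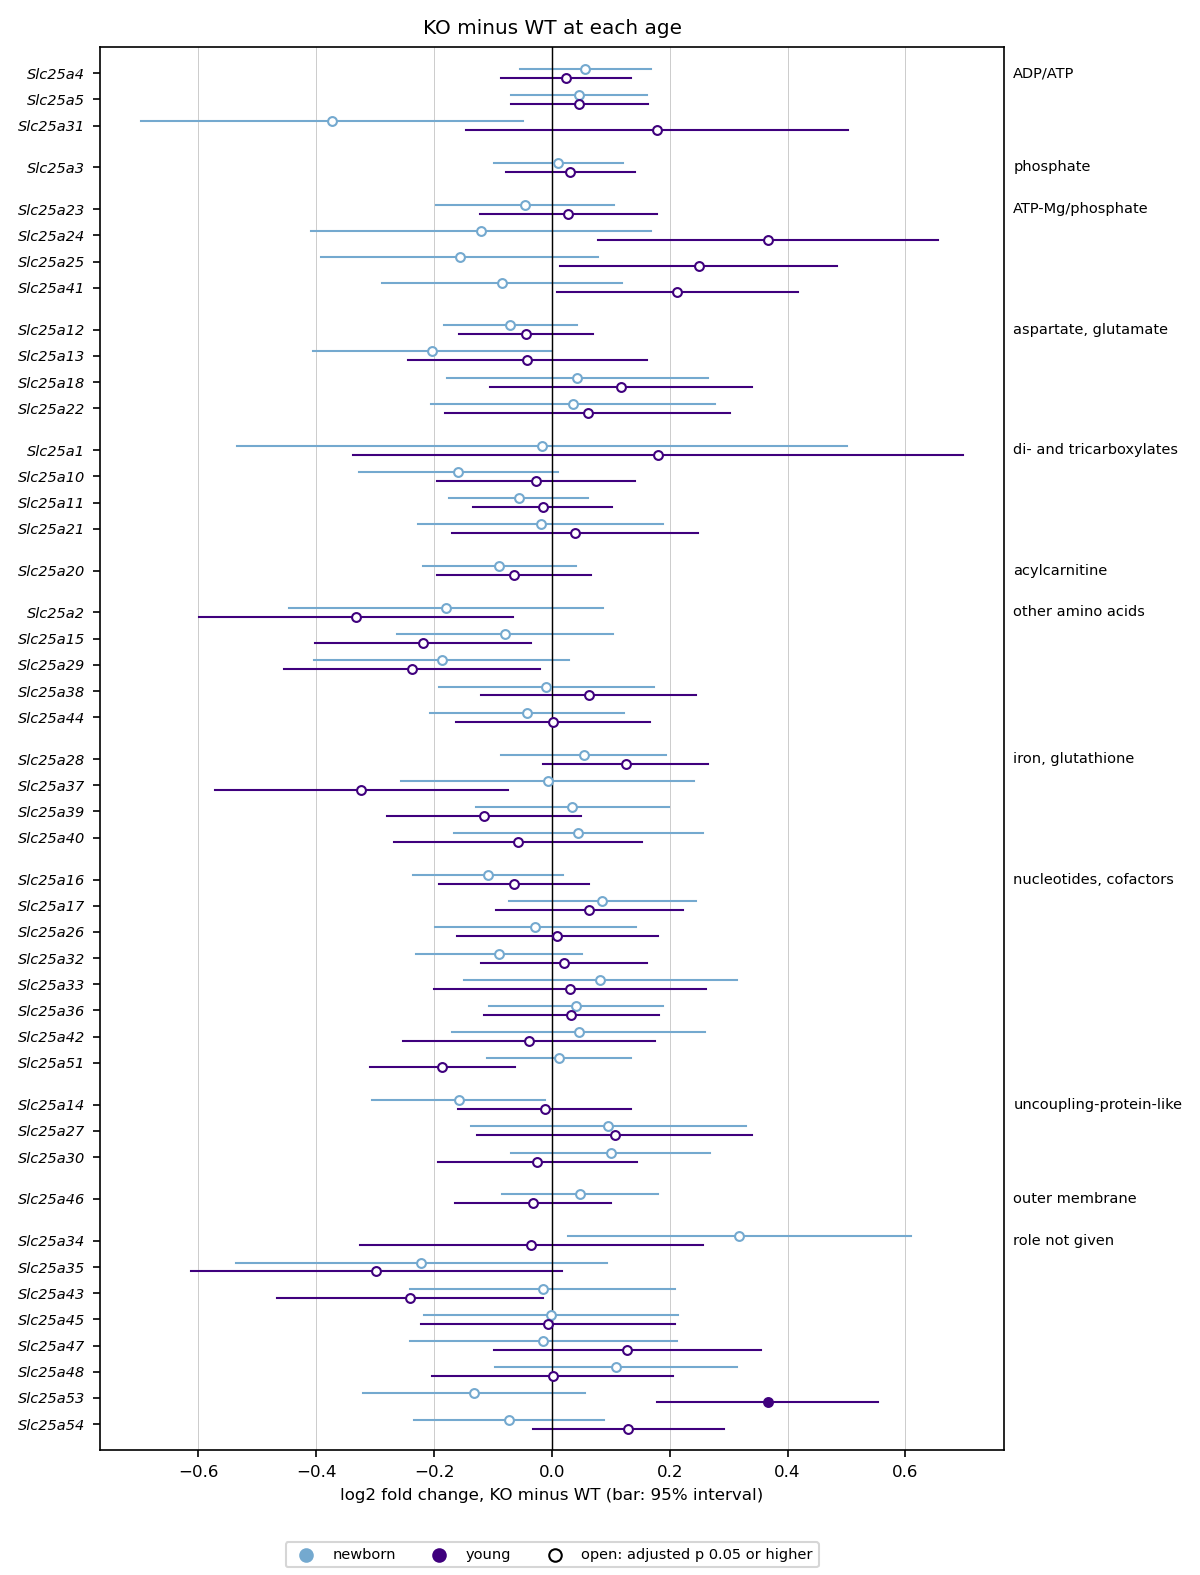
Difference between KO and WT hearts as log2 fold change on the x axis for the 46 carrier genes in newborn (light blue) and young (purple) hearts, with 95% intervals from 6 arrays per group. Slc25a53 in young hearts, at 0.37, is the single filled point (adjusted p under 0.05).

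In young hearts 1 of 46 members was called, Slc25a53, which was higher in KO hearts, against 1.02% of all genes tested, 0.67% higher and 0.351% lower. Slc25a53 measured 2.83, 2.89 and 3.02 in young WT and 3.13, 3.23 and 3.56 in young KO hearts. The groups did not overlap, as in 0.824% of all genes (0.42% higher, 0.404% lower), and the difference was 0.37 (SE 0.09, 1.29-fold, n = 6 per group, limma adjusted p = 0.0484). The call was lost in 25 of 35 alternative settings. Over all 35 the adjusted p ran from 0.0192 to 0.219, and the sex of the arrays as a covariate left it at 0.0479. After median centring the single call was Slc25a51, lower in KO hearts, in place of Slc25a53. Slc25a53 signals were below the median of all deposited values on every array, and its substrate is not given here. The difference between its KO effects at the 2 ages was 0.50 and did not pass (adjusted p = 0.179).

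Without adjustment 10 members had p under 0.05 in young hearts, 4 higher and 6 lower, and 15.0% of all genes did. Slc25a51 measured 8.89, 9.02 and 9.08 in young WT and 8.74, 8.81 and 8.94 in young KO hearts, a difference of -0.19 (SE 0.06, limma adjusted p = 0.125), and -0.24 after median centring (adjusted p = 0.0293). Slc25a37 measured 7.14, 7.39 and 7.72 in young WT and 6.65, 7.15 and 7.35 in young KO hearts, a difference of -0.32 (SE 0.12, adjusted p = 0.192). The within-array difference Slc25a28 minus Slc25a37 was 0.45 higher in young KO than in young WT hearts (exact permutation p = 0.00649, adjusted p = 0.0156), with -0.45 to 0.03 on WT and -0.02 to 0.91 on KO arrays, which overlapped. Mean levels of 10 erythroid markers were 4.10 to 4.50 on young WT and 4.09 to 4.40 on young KO arrays, and their part was not tested.

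Slc25a24 measured 5.84, 6.14 and 6.74 in young WT and 6.02, 6.55 and 6.998 in young KO hearts, a difference of 0.37 (SE 0.14, limma adjusted p = 0.205). Over 36 alternative settings, among them the atrial covariate described below, the difference ranged from 0.06 to 0.48. The limma adjusted p ran from 0.0347 to 0.945. It passed in 2 settings, without young WT array 2 (0.47, adjusted p = 0.0392) and without young KO array 3 (0.48, adjusted p = 0.0347). These arrays held the highest WT and the lowest KO value of Slc25a24 in young hearts, so leaving either out widens the difference by construction. Without the 3 young arrays with high brown adipocyte markers the difference was 0.30 (adjusted p = 0.259). Atrial marker means on these 3 arrays were 8.41, 8.97 and 8.20, against 5.80 to 8.81 on the other 9 young arrays. Slc25a1 differed by 0.18 (adjusted p = 0.793) over all arrays and by 0.53 (adjusted p = 0.0181) without young WT array 2. That array held the highest Slc25a1 value, so leaving it out raises KO minus WT by construction. Slc25a1 differed by 0.29 (adjusted p = 0.0835) without all 3 young arrays with high brown adipocyte markers. With the mean of the atrial markers as a covariate in young hearts it differed by -0.46 (adjusted p = 0.668). In these hearts atrial marker means ran from 5.80 to 8.41 in WT and from 6.28 to 8.97 in KO hearts, and smooth muscle marker means from 7.28 to 9.23 and from 7.65 to 9.89, with 0 of 13 and 0 of 5 genes called. This covariate was the mean of 12 atrial markers, without Nppa, and was fitted on the 12 young arrays alone. With it 0 members were called, and Slc25a53 had 0.43 (limma adjusted p = 0.219). The same 12 arrays without the covariate also gave 0 members called, with Slc25a53 at 0.37 (limma adjusted p = 0.0978). The part of the covariate alone was not tested. The part of the smooth muscle markers was not tested.

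Carriers of the core energy pathway had narrow intervals in young hearts. KO minus WT was 0.02 (95% interval -0.09 to 0.13) for Slc25a4, 0.05 (-0.07 to 0.16) for Slc25a5, 0.03 (-0.08 to 0.14) for Slc25a3, -0.04 (-0.16 to 0.07) for Slc25a12, -0.02 (-0.13 to 0.10) for Slc25a11 and -0.06 (-0.19 to 0.07) for Slc25a20. These intervals bound the difference and do not show that the genotypes were alike. Of the 46 members, 39 had intervals inside -0.5 to 0.5. The exceptions were Slc25a1, Slc25a2, Slc25a24, Slc25a31, Slc25a35, Slc25a37 and Slc25a53.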

How the data were processed

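Ventricle RNA of 24 mouse hearts was hybridized to Affymetrix arrays, and the authors deposited log2 signals from RMA (oligo 1.22, limma 3.14 and R 2.15 in the submitters' processing notes). RMA equalizes the signals of the arrays before probe sets are summarized, so a change shared by most genes may not be seen. The summarized values were not fully equal, with array medians of 4.24 to 4.50, and remaining shifts between arrays can enter the calls. The arrays hold 35017 probe sets, of which 21118 name 1 gene, 1735 several and 12164 none. Supplementary microarray statistics were not used here. Groups were taken from the sample annotation.

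All 24 arrays entered 1 linear model of 4 group means in limma 3.58.1 under R 4.3.3 (20 residual degrees of freedom). Genes were called at a Benjamini-Hochberg adjusted p under 0.05 over 18819 genes, and adjusted p-values come from limma unless a permutation test is named. The procedure was tested on simulated data. The members and lists were chosen with earlier results of these data known. The rule for named genes took the 8 largest rises and falls called in WT hearts, called genotype differences, the 4 smallest p per age, fixed paralog sets, and up to 4 genes per pathway list. Other members are named to account for all of them, and Slc25a1, Slc25a11 and Mtch2 were chosen after their values were seen. Alternatives were a filter on signal, stricter thresholds, 2 normalizations, moderated variance trend, weights per array, a block for replicate numbers, other probe set rules, fewer arrays and covariates for sex and atrial markers. No slide or scan date is given in the sources used here. The number of arrays limits precision.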

Additional observations from a re-analysis of the deposited data

Results flagged for a closer look

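Over the 46 members and 4 groups, 184 sets of 6 arrays were examined for an array far from the others, and 10 were found (5.43%), where chance gives about 1 in 20. Slc25a1 on young WT array 2 was 9.09, against at most 7.15 on the other young WT arrays. On that array Slc25a34 was 8.72, below 9.05 to 9.16 on the others, and Slc25a14 was 3.59, below 3.85 to 4.00. Young WT array 1 was highest for Slc25a15 at 7.16 and for Slc25a38 at 8.99. Slc25a4 on young WT array 6 was highest at 12.67. Slc25a51 on young WT array 3 was lowest at 8.89. Slc25a40 on young KO array 5 was lowest at 5.88. Slc25a11 on newborn WT array 4 was lowest at 11.50, and Slc25a44 on newborn WT array 2 was lowest at 7.96.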

How the results depend on the processing

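Of the 29 members called with age in WT hearts, 23 kept their call in every alternative that tested them, stricter thresholds aside, and of the 31 in KO hearts 26 did. The exceptions were Slc25a3, Slc25a4, Slc25a14, Slc25a20, Slc25a42 and Slc25a43 in WT hearts, and Slc25a3, Slc25a4, Slc25a37, Slc25a40 and Slc25a54 in KO hearts. The filter on signal left Slc25a2 and Slc25a53 (called in WT hearts) and Slc25a54 (called in KO hearts) untested. Leaving out 1 array at a time gave 26 to 29 members called in WT and 30 to 32 in KO hearts. Of all genes, 44.5% to 48.0% and 54.8% to 59.6% were called in these fits. It gave 0 members for KO against WT in newborn hearts and for the difference between ages. For KO against WT in young hearts it gave 0 to 3 (0 for 17 of 24 arrays, 3 without young WT array 2 and 2 without young KO array 3). The shares of all genes beside the last 2 counts are not given here, so these counts are not read as particular to the carriers. A fold change of at least 1.5 left 10 members with age in WT and 12 in KO hearts, and the matching shares of all genes were not counted. Without both newborn arrays numbered 4, 1 member was called for KO against WT in newborn hearts, when 2.56% of all genes were. For KO against WT in young hearts 0 members were called at an adjusted p under 0.01, at a fold change of at least 1.5, without genes under the 30th percentile of signal (which removes Slc25a53), with a variance trend and robust moderation, with array weights, with the mean of all probe sets, with only the 12 arrays, without the newborn arrays numbered 4, without the 3 young arrays rich in brown adipocyte markers (an alternative chosen after seeing the data), and with the atrial covariate. The cause was not tested.

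The replicate numbers were not used to pair the arrays in the main model. Of 36 same-numbered pairs, 15 correlated over 0.1, from -0.44 to 0.64. The highest was that of young WT array 2 and young KO array 2, both rich in brown adipocyte markers. Differently numbered pairs were not set beside them, so pairing was neither shown nor excluded. With the number as a block, 29 members were called with age in WT and 33 in KO hearts, against 47.5% and 59.6% of all genes. For KO against WT, 0 members were called in newborn and 1 in young hearts, against 0% and 1.08% of all genes. For the difference between ages 0 members were called. The sign of the following values turned. Slc25a1 for KO against WT in young hearts was -0.46 with the atrial covariate. Slc25a4 with age in KO hearts was -0.00074 after quantile normalization. With age in WT hearts Slc25a51 was -0.0051 without the 3 young arrays rich in brown adipocyte markers and -0.016 with the sex covariate, and lay between -0.017 and 0.032 with 1 array left out. Slc25a37 was -0.017 without both newborn arrays numbered 4, and lay between -0.058 and 0.058 with 1 array left out. Slc25a25 lay between -0.010 and 0.12 with 1 array left out. Median centring moved the median of all genes from 0.0024 to 0.07 with age in WT hearts and from 0.098 to 0.087 in KO hearts.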
